A study of Mus musculus with 18 samples.

Results

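The genes described here are 5 cytokine genes of mouse chromosome 11, *Il3*, *Il4*, *Il5*, *Il13* and *Csf2*, the last of which encodes GM-CSF. They were chosen by name, as the rows of the count files whose Ensembl identifier carries 1 of these symbols in the GRCm38 annotation, and they are 5 of the 55029 genes listed for the *E. coli* and IFN-γ libraries, of which 54232 are also listed for the IL-4 libraries. Their identifiers are ENSMUSG00000018914 for *Il3*, ENSMUSG00000000869 for *Il4*, ENSMUSG00000036117 for *Il5*, ENSMUSG00000020383 for *Il13* and ENSMUSG00000018916 for *Csf2*.

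The study asked how mouse eosinophils change their transcripts under different activating agents, and its 18 RNA libraries hold 3 for each of the 4 stimuli and 6 of unstimulated cells. The cells came from the peritoneal cavity of C57BL/6 mice of the NJ.1638 line, which carry an *Il5* transgene that drives eosinophil numbers up, and every group, the unstimulated one included, carries it. Eosinophils were enriched by depleting cells that bind anti-Thy1.2 or anti-B220 beads. Thy1 is carried by T cells and also by innate lymphoid cells, and B220 by B cells. Stimulated cells were kept for 18 h with heat-inactivated *E. coli*, IFN-γ, the 2 combined, or IL-4. How long unstimulated cells were kept, and the age and sex of the mice, are not given in the sources used here. In this line the transgene is under regulatory sequences of *Cd3d* and is expressed in T cells. A read of *Il5* cannot be assigned to the transgene or to the gene on chromosome 11, so each *Il5* value may hold both.

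The libraries fall into 2 sets with different gene lists, and the response to a stimulus was always taken against the unstimulated cells of the same set. Set 1 holds unstimulated libraries a to c, *E. coli*, IFN-γ and both stimuli, and set 2 holds unstimulated libraries d to f and IL-4. Counts on genes were 1523808 to 2734041 per library in set 1 (median 1975355) and 3625036 to 6482289 in set 2. Levels are given as CPM (counts scaled to equal TMM-normalized library totals), and 3 counts, taken as the smallest number that can be told from 0, came to 1.00 to 2.19 CPM in set 1 and 0.497 to 0.833 CPM in set 2. In set 1 the highest count of any gene was 4089 to 4095 in each library, just under the 4096 sequences that a tag of 6 bases can take, while in set 2 it was 87377 to 191131. The sets may therefore count different things, and levels are not compared between them. The study calls its replicates biological, but neither it nor the labels say in the sources used here whether they were separate animals or cultures, so that p-values measure the spread between these libraries, which may be technical.

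IL-4 and IL-13 are related cytokines that share a receptor chain, act through STAT6, and drive class switching to IgE, mucus production and alternative activation of macrophages. IL-5, IL-3 and GM-CSF signal through a common beta chain and support the growth, survival and activation of eosinophils. In T helper cells and innate lymphoid cells the *Il4*, *Il13* and *Il5* genes are regulated as 1 locus, with control elements in the neighbouring *Rad50* gene, and eosinophils are known as a source of several of these cytokines.

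The study required a minimum purity by flow cytometry before using the cells, and describes the contaminating cells as mostly lymphocytes. Eosinophil transcripts matched the label in part. All 12 markers on an eosinophil list had counts in at least 1 library, and their summed level was 3521 to 6608 CPM, led by *Ccr3* in set 1 and by *Alox15* in set 2. In set 1 the sum was lower in every library with *E. coli* alone (3861 to 4350 CPM) or with both stimuli (3521 to 3952) than in unstimulated libraries a to c (4493 to 5949). Of the 8 list genes tested there, 2 were called higher and 2 lower with *E. coli* (13.5% and 16.7% of all genes). These counts were 1 and 5 with IFN-γ (15.6% and 16.0%) and 2 and 5 with both stimuli (23.9% and 25.2%). With IL-4, 4 of 12 were higher and 1 lower (5.97% and 4.35%). *Siglecf*, the sialic acid receptor that defines mouse eosinophils, had 483 to 5460 counts per library. Transcripts of the granule proteins *Epx*, *Prg3* and *Prg2* were low, at 0 to 19, 0 to 22 and 19 to 355 counts. *Ear6*, on the same list, had higher means. They were 36.6 CPM in unstimulated libraries a to c and 87.5 with *E. coli*, and 137.7 in libraries d to f and 348 with IL-4. With IFN-γ the log2 fold change of *Ear6* was -0.93 (edgeR adjusted p = 0.00100). That of *Siglecf* was -0.68 with *E. coli* and -0.70 with IFN-γ (edgeR adjusted p = 2.49e-04 and 1.77e-04). For *Ccr3* it was -0.72 with IL-4 (edgeR adjusted p = 0.0117).

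*Il13*, the gene of IL-13, rose with *E. coli*, rose less with IFN-γ and *E. coli* together, and fell with IL-4. Its level was 3.73, 12.7 and 14.0 CPM in unstimulated libraries a, b and c, from 10, 20 and 34 counts. With *E. coli* it was 184, 209 and 196 CPM in replicates 1, 2 and 3. The *E. coli* libraries lay far above the unstimulated ones, with a mean of 196 ± 12.1 CPM against 10.1 ± 5.603 (SD, n = 3 each). The log2 fold change was 4.33 (SE 0.23; edgeR adjusted p = 1.25e-10), in a comparison where 13.5% of the 9883 genes tested were called higher and 16.7% lower at an adjusted p under 0.05. With IFN-γ the level was 13.4, 13.3 and 18.3 CPM. This range overlaps that of unstimulated libraries a to c, and the log2 fold change of 0.61 did not pass (SE 0.31; edgeR adjusted p = 0.150), beside 15.6% of genes called higher and 16.0% lower (1541 and 1579, or 970 and 2448 on library totals without TMM). Unstimulated library a, the lowest of its group, weighs on this value, which was 0.14 (adjusted p = 0.753) without it and 1.04 (adjusted p = 0.0319) without library c. With all 6 unstimulated libraries as 1 group it was 0.23 (adjusted p = 0.619).

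With IFN-γ and *E. coli* together, *Il13* was at 99.3, 98.6 and 98.9 CPM, above every unstimulated and every IFN-γ library and below every *E. coli* library. The mean was 99.0 ± 0.355 CPM (SD, n = 3). Against unstimulated libraries a to c the log2 fold change was 3.34 (SE 0.24; edgeR adjusted p = 1.87e-09), where 23.9% of genes were called higher and 25.2% lower (2358 and 2486, or 1536 and 3676 on library totals). Against *E. coli* alone, *Il13* fell by 0.99 on the log2 scale (SE 0.17; edgeR adjusted p = 2.14e-04), with 17.5% of genes higher and 15.3% lower (1725 and 1515, or 1097 and 2859 on library totals). Against IFN-γ alone it rose by 2.73 (SE 0.23; edgeR adjusted p = 2.10e-07), with 6.25% of genes higher and 5.98% lower (618 and 591, or 443 and 815 on library totals). The joint level was also below the sum of the log2 effects of both stimuli, by -1.60 (SE 0.36; edgeR adjusted p = 0.0139), where 2.58% of genes departed upwards and 2.04% downwards. This departure did not pass without IFN-γ replicate 3, at -1.47 (adjusted p = 0.0533). All 3 stimuli of set 1 were set against the same unstimulated libraries, and the comparisons of both stimuli with either alone share the libraries that received both.

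In set 2 *Il13* was at 12.2, 13.4 and 10.004 CPM in unstimulated libraries d, e and f and at 4.57, 2.99 and 3.63 CPM in IL-4 replicates 1, 2 and 3. Each IL-4 library was below each unstimulated one, with 14 to 24 counts against 44 to 81. The log2 fold change was -1.67 (SE 0.29; edgeR adjusted p = 0.00461), where 5.97% of the 10556 genes tested were called higher and 4.35% lower. The response to IL-4 differed from the response to *E. coli*, each against its own unstimulated libraries, by -6.02 on the log2 scale (SE 0.37; edgeR adjusted p = 1.97e-10). In that test 14.4% of 10671 genes differed upwards and 13.7% downwards. Summed neutrophil markers, nearly all of them *Retnlg*, were also lower with IL-4, at 732 to 809 CPM against 1677 to 1995, as were macrophage markers, at 2294 to 2595 against 2807 to 3466, and their part in the result was not tested. In bulk RNA, fewer cells that carry a transcript and less of it per cell cannot be told apart, here and in all that follows.

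*Il5*, the gene of the main growth and survival factor of eosinophils, rose with *E. coli* and with both stimuli by less than *Il13* did. Unstimulated libraries a to c had 456, 598 and 494 CPM, against 848, 834 and 865 CPM with *E. coli*. With IFN-γ it was 520.0, 515 and 561 CPM, and with both stimuli 734, 680.5 and 735 CPM. Every library with *E. coli*, with or without IFN-γ, was above every unstimulated and every IFN-γ library, and these 2 groups overlapped. Group means were 516 ± 73.1 CPM unstimulated, 849 ± 15.6 with *E. coli*, 717 ± 31.3 with both stimuli and 532 ± 25.2 with IFN-γ (SD, n = 3 each). The log2 fold change was 0.72 with *E. coli* (SE 0.11; edgeR adjusted p = 6.27e-05), 0.48 with both (adjusted p = 0.00157) and 0.046 with IFN-γ, which did not pass (adjusted p = 0.792). On library totals without TMM the value with both was 0.23 (adjusted p = 0.0310), and that with IFN-γ was -0.12 (adjusted p = 0.277).

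All 3 libraries with both stimuli had less *Il5* than all 3 with *E. coli* alone, but this difference of -0.25 did not pass (SE 0.11; edgeR adjusted p = 0.0957). It passed on library totals without TMM, at -0.48 (adjusted p = 2.82e-04), and in a fit of the 9 stimulated libraries alone, at -0.25 (adjusted p = 0.0410). It also passed at -0.49 (adjusted p = 0.00171) on counts corrected for molecules that share a tag. *Il5* is the member nearest to the limit of 4096, with 1752 to 2494 counts with *E. coli* and 858 to 1242 in the other libraries of the set. On corrected counts its rise with *E. coli* was 0.99 in place of 0.72. Against IFN-γ alone, both stimuli gave a rise of 0.43 (SE 0.11; edgeR adjusted p = 0.0154), which did not pass without IFN-γ replicate 1 (adjusted p = 0.0721), IFN-γ replicate 2 (adjusted p = 0.0814) or replicate 1 of both stimuli (adjusted p = 0.0532). The departure from the sum of both effects was -0.29 and did not pass (edgeR adjusted p = 0.370), nor did the value of -0.51 on corrected counts (adjusted p = 0.0632).

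In set 2 *Il5* was at 325, 392.3 and 245 CPM in unstimulated libraries d to f and at 264, 294 and 226 CPM with IL-4. The groups overlapped, and the log2 fold change of -0.29 did not pass (SE 0.17; edgeR adjusted p = 0.324). It was -0.12 without unstimulated library e and -0.46 without library f (adjusted p = 0.637 and 0.115). The IL-4 and *E. coli* responses differed by -1.03 (SE 0.20; edgeR adjusted p = 5.07e-04). Exons of *Il5* overlap *Gm12214* on the other strand, which held 0 to 6 counts per library. The sources used here do not state whether counting used the strand, and reads of such a pair cannot then be told apart.

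*Il4*, the gene of the cytokine that was also 1 of the stimuli, had the smallest rise of the 3 tested members with *E. coli*. Unstimulated libraries a to c had 111, 117 and 97.5 CPM, against 164, 156 and 145 CPM with *E. coli*. With IFN-γ it was 119.8, 134 and 126 CPM, and with both stimuli 158, 198 and 210.4 CPM. Unlike *Il13* and *Il5*, *Il4* had its highest group mean with both stimuli, at 189 ± 27.2 CPM, against 155 ± 9.66 with *E. coli*, 127 ± 7.01 with IFN-γ and 108 ± 9.80 unstimulated (SD, n = 3 each). Replicate 1 of both stimuli lay within the *E. coli* range, so those groups overlapped. Every stimulated library was above every unstimulated one. On library totals without TMM the IFN-γ libraries (115.1 to 130.1 CPM) overlapped the unstimulated ones (106.7 to 122.8), and the means of both stimuli and of *E. coli* were 170.5 and 164.5 CPM. The log2 fold change was 0.53 with *E. coli* (SE 0.12; edgeR adjusted p = 0.00244), 0.81 with both (adjusted p = 2.10e-05) and 0.23 with IFN-γ, which did not pass (adjusted p = 0.168) and was 0.056 on library totals (adjusted p = 0.750). With all 6 unstimulated libraries as 1 group, which joins levels of both sets, these were 0.97, 1.30 and 0.69 (adjusted p = 0.00942, 4.53e-04 and 0.0505).

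The difference that IFN-γ made to *Il4* on top of *E. coli* was 0.28, which did not pass (SE 0.12; edgeR adjusted p = 0.0717) but did without replicate 1 of both stimuli, at 0.40 (adjusted p = 0.0176). On library totals it was 0.052 (adjusted p = 0.748). Adding *E. coli* to IFN-γ raised it by 0.58 (SE 0.12; edgeR adjusted p = 0.00364). The departure from the sum of both effects was 0.054 and did not pass (edgeR adjusted p = 0.921). In set 2 *Il4* was at 41.9, 42.1 and 36.8 CPM in unstimulated libraries d to f and at 40.5, 44.5 and 34.2 CPM with IL-4. The groups overlapped fully, and the log2 fold change of -0.013 did not pass (SE 0.16; edgeR adjusted p = 0.969), nor did the -0.58 found with all 6 unstimulated libraries as 1 group (adjusted p = 0.116). The IL-4 and *E. coli* responses of *Il4* differed by -0.55 (SE 0.18; edgeR adjusted p = 0.0269). This difference did not pass on library totals (adjusted p = 0.0714), without a filter on low counts (adjusted p = 0.0828), or without unstimulated library c, *E. coli* replicate 1 or 2, or IL-4 replicate 3 (adjusted p = 0.0701, 0.0651, 0.0507 and 0.0728).

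*Csf2*, the gene of GM-CSF, was seen at a few counts, and only in libraries with *E. coli*. It had 4, 6 and 4 counts in *E. coli* replicates 1, 2 and 3, or 1.63, 2.01 and 1.98 CPM, and 0, 1 and 1 counts with both stimuli. The other 12 libraries, unstimulated, IFN-γ and IL-4, had 0 counts. Each *E. coli* library had more counts than any other library, but at 1.63 CPM replicate 1 is under the floor of 3 counts in unstimulated library b (1.90 CPM), in IFN-γ replicates 1 and 3 (1.68 and 1.96 CPM) and in all 3 libraries with both stimuli (1.64 to 2.19 CPM). With the unstimulated libraries set to their floors, the mean of *Csf2* was at least 1.32-fold higher with *E. coli*, and at least 1.08-fold higher than the floors of the IFN-γ libraries. The summed counts of 14 with *E. coli* and 2 with both stimuli gave a ratio of 4.42 after normalization, with a 95% exact interval of 1.01 to 40.0. *Csf2* did not pass the filter on low counts, and no fitted test is given against libraries that were all at 0. Without the filter, edgeR gave an adjusted p of 0.246 for both stimuli against *E. coli*, and DESeq2 gave none. Floors and intervals cover counting error only. Exons of *Csf2* overlap *Gm12223* on the other strand, which had 0 counts in all 18 libraries.

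*Il3*, the gene of IL-3, had 0 counts in all 18 libraries. At these depths a level under 1.00 to 2.19 CPM in set 1, or under 0.497 to 0.833 CPM in set 2, was not detectable.

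Of the 5 members, 3 were tested. With *E. coli* and with both stimuli 3 of these 3 were called higher (13.5% and 23.9% of all genes), with IFN-γ none was (15.6%), and with IL-4 1 was lower (4.35%) and 2 were not called. Exact two-sided permutation tests over 3 against 3 libraries cannot go below p = 0.1. This value means only that the libraries of the compared groups did not overlap. How many of all genes reach it was not counted, so it does not set the members apart. On TMM levels that value was reached by *Il13*, *Il5* and *Il4* with *E. coli* alone or joined to IFN-γ, by *Il4* with IFN-γ and by *Il13* with IL-4. *Csf2* reached it too with *E. coli*, with the unstimulated libraries read as 0 and not at their floors.

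**Figure D1:**
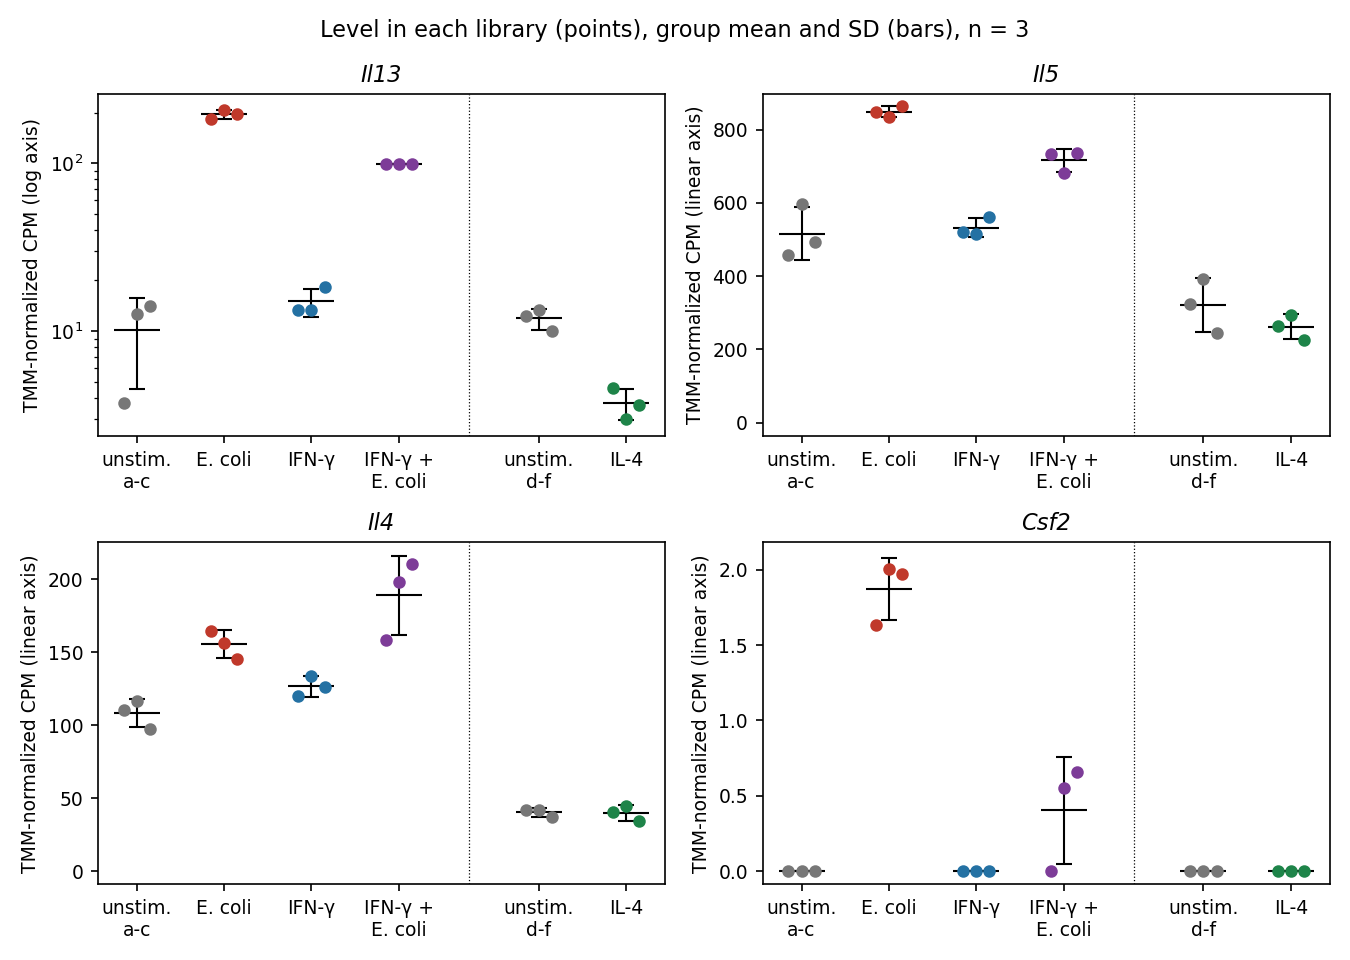
TMM-normalized CPM of *Il13* (log axis), *Il5*, *Il4* and *Csf2* (linear axes) in each library, with points for libraries and bars for the mean and SD of 3; a dotted line separates the sets. The *E. coli* libraries sit at 184 to 209 CPM of *Il13* and 834 to 865 CPM of *Il5*, above the unstimulated libraries a to c, while *Il4* with both stimuli, at 158 to 210.4 CPM, overlaps its level with *E. coli*.

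The members lie within 664.3 kb of chromosome 11 in GRCm38. *Il4* is at chr11:53602982-53618669 and *Il13* at chr11:53631324-53634702, both on the minus strand and 12.7 kb apart. *Il5* follows at chr11:53720794-53725106 on the plus strand, 86.1 kb from *Il13*, with *Rad50* between them. *Csf2*, at chr11:54247271-54249667, lies 522.2 kb beyond *Il5*, and *Il3*, at chr11:54265303-54267277, lies 15.6 kb beyond *Csf2*, both on the minus strand. The annotation has 32 genes from 100 kb before *Il4* to 100 kb after *Il3*, of which 17 are protein coding. In this interval 21 genes never exceeded 10 counts, and 10 of these had 0 in all libraries. Apart from the members, 7 of its genes were tested in set 1 and 8 in set 2.

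Neighbouring genes were called in either direction. With *E. coli*, *P4ha2*, which encodes a subunit of collagen prolyl hydroxylase, rose by 2.26 on the log2 scale (edgeR adjusted p = 0.00473). *Irf1*, the gene of an interferon-induced transcription factor nearest to *Il5* on its far side among protein-coding genes, fell by 0.76 (edgeR adjusted p = 1.52e-05). *Gm12216* fell by 2.52 (edgeR adjusted p = 4.60e-04). *Rad50*, *Kif3a*, *Pdlim4* and *Sept8* were not called, at 0.12, 0.21, 0.20 and -0.87. Between *Il13* and *Il5*, which both rose, *Rad50* thus had a fold change near 0. With IFN-γ, where no member was called, *Irf1* rose by 2.08, *Gm12216* by 2.38, *P4ha2* by 3.32 and *Pdlim4* by 1.11, and *Rad50* fell by 0.62 (edgeR adjusted p = 2.47e-11, 1.65e-06, 6.43e-05, 0.0414 and 0.0361). The same 5 genes were called in the same directions with both stimuli, at 2.04, 2.24, 4.45, 1.47 and -0.66.

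With IL-4, *Irf1* rose by 0.97 (edgeR adjusted p = 7.82e-04), *Gm12216* by 1.68 (adjusted p = 0.00660) and *Gm17334* by 2.21 (adjusted p = 0.00485), while *Il13* fell. *Gm17334* lies on the other strand of *Irf1* exons, and reads of this pair cannot be told apart without strand. A list of 24 neighbours over a wider stretch had 15 tested genes, with 2 higher and 1 lower with *E. coli* (13.5% and 16.7% of all genes; median log2 fold change 0.12, against -0.024), 6 and 1 with IFN-γ (15.6% and 16.0%), 7 and 1 with both stimuli (23.9% and 25.2%), and 1 and 0 with IL-4 (5.97% and 4.35%). Of the 7 tested genes of the interval that are not members, 4 were higher and 1 lower with both stimuli (23.9% and 25.2% of all genes). Besides *P4ha2* the higher one with *E. coli* was *Hspa4*, at 0.41 (edgeR adjusted p = 0.00813).

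**Figure D2:**
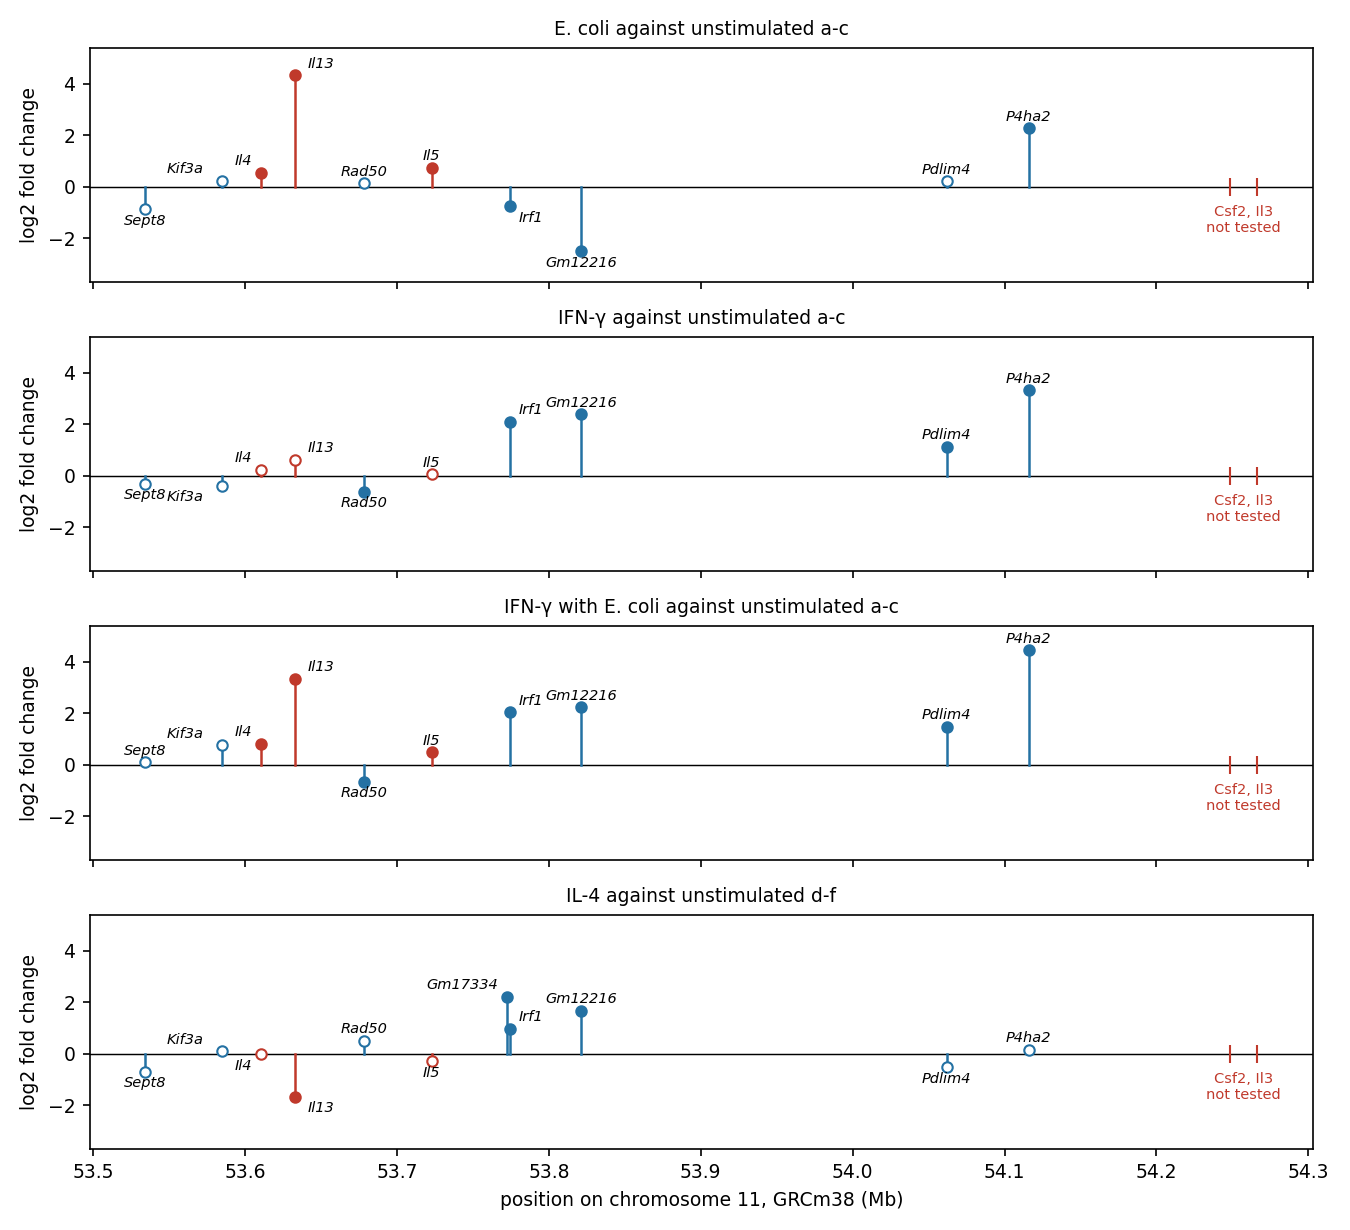
Log2 fold change of each tested gene by position (Mb, GRCm38) on chromosome 11 in 4 comparisons, with members in red, other genes in blue, filled points for genes called at an adjusted p under 0.05 and open points for genes not called; *Csf2* and *Il3* were not tested. *Il13* stands at 4.33 with *E. coli* and -1.67 with IL-4, while *Irf1* stands at -0.76 and 0.97.

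Receptor genes of these cytokines are on a list of 9, of which 8 were tested. With *E. coli* 4 were higher and 1 lower (13.5% and 16.7% of all genes; median 0.28, against -0.024), and with IL-4 1 was higher and 1 lower (5.97% and 4.35%; median -0.21, against 0.00057). *Il5ra*, the specific chain of the IL-5 receptor, fell by 1.35 with *E. coli*, from 179 to 70.7 CPM (edgeR adjusted p = 7.58e-07), and rose by 0.60 with IL-4 (adjusted p = 0.0204). *Il4ra*, the chain that IL-4 and IL-13 share, rose by 1.10 with *E. coli* (edgeR adjusted p = 3.07e-07), and *Il13ra1*, its partner for IL-13, by 1.26 (adjusted p = 0.00237). *Csf2rb2*, the beta chain that pairs with the IL-3 receptor in mice, rose by 0.85 (edgeR adjusted p = 5.32e-05). It is a near-identical copy of *Csf2rb*, so reads of the pair may be shared, and its 2497 to 3398 counts with *E. coli* are nearer to the limit of the tags than those of *Il5*, so that the size of its change is uncertain. *Csf2rb*, the common beta chain, had 3985 to 4089 counts with *E. coli*, at the limit of the tags, and its change there cannot be read. *Il3ra* fell by 0.87 with IL-4 (edgeR adjusted p = 0.0414), and *Il13ra2*, the decoy receptor, had 0 counts in all libraries. With IFN-γ and with both stimuli 4 receptors were higher and 1 lower (15.6% and 16.0%, and 23.9% and 25.2%, of all genes). In both cases the 4 include *Csf2rb*, which is near the tag limit there too, with 3772 to 3887 and 3872 to 4015 counts, and *Csf2rb2*.

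Of the 8 receptor genes tested, 2 departed downwards from the sum of both effects (2.04% of all genes) and 0 upwards (2.58%). These were *Il4ra* and *Il13ra1*, at -1.14 and -1.34 (edgeR adjusted p = 2.86e-04 and 0.0278). *Il4ra*, like *Il13*, was lower with both stimuli than with *E. coli* alone, by -0.95 (edgeR adjusted p = 1.43e-06). Its mean was 112 CPM unstimulated, 241 with *E. coli*, 125 with both stimuli and 128 with IFN-γ.

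The Janus kinases and STAT factors of these receptors, a list of 7 genes all tested, had 3 lower and none higher with *E. coli* (16.7% and 13.5% of all genes, median -0.32 against -0.024), namely *Tyk2* at -0.48, *Stat6* at -0.32 and *Jak2* at -0.32 (edgeR adjusted p = 0.0329, 0.0206 and 0.0476). With IL-4 *Jak2* rose by 0.57 (edgeR adjusted p = 0.00969) and none fell (5.97% and 4.35% of all genes). With IFN-γ 2 were higher (15.6% of all genes), and with both stimuli 2 higher and 1 lower (23.9% and 25.2%).

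Transcription factors known from type 2 cytokine genes form a list of 42, with 37 tested in set 1. With *E. coli* 15 were higher and 9 lower (13.5% and 16.7% of all genes; median 0.22), with IFN-γ 10 and 11 (15.6% and 16.0%), and with both stimuli 16 and 11 (23.9% and 25.2%). The largest changes with *E. coli* were falls of *Fos* (-1.81), *Bcl6* (-1.81), *Egr1* (-1.67) and *Satb1* (-1.41), with edgeR adjusted p of 5.04e-07, 1.63e-04, 9.96e-08 and 0.00373. *Fos* and *Egr1* are immediate early genes, and BCL6 is known as a repressor of type 2 cytokine genes. With IL-4 9 of 40 were higher and 3 lower (5.97% and 4.35% of all genes, median 0.33). There *Bhlhe41* fell by 3.39 and *Cebpa* by 1.43, and *Irf4* rose by 2.71 and *Batf3* by 1.18 (edgeR adjusted p = 9.61e-05, 0.0122, 0.00427 and 0.00371). *Gata3*, the regulator of these genes in T helper cells and innate lymphoid cells, had 0 to 4 counts per library. *Gata1* and *Gata2* had 397 to 2600 and 48 to 391 counts. *Gata1*, a factor of the eosinophil lineage, rose by 0.56 with *E. coli* and by 0.38 with IFN-γ (edgeR adjusted p = 4.59e-04 and 0.0103). *Gata2*, a factor of mast cells and progenitors, rose by 0.48 with *E. coli* and fell by 0.50 with IFN-γ (edgeR adjusted p = 0.0210 and 0.0302). *Gata1*, *Gata2* and *Gata3* were picked for mention after the values of the list were seen, and their part in the result was not tested.

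Cytokine transcripts are short-lived, and factors that bind their AU-rich or stem-loop elements form a list of 16 genes, all tested. With *E. coli* 6 were higher and 2 lower (13.5% and 16.7% of all genes, median 0.25), with IFN-γ 4 and 2 (15.6% and 16.0%), with both stimuli 7 and 1 (23.9% and 25.2%), and with IL-4 1 and 0 (5.97% and 4.35%, median -0.085). *Zc3h12c* rose by 1.76 with *E. coli*, *Zc3h12a*, the gene of the RNase Regnase-1, by 1.57, *Zfp36l1* by 1.11 and the kinase gene *Mapkapk2* by 0.85 (edgeR adjusted p = 7.18e-04, 3.90e-07, 3.84e-05 and 1.32e-05). *Zfp36l1* was also the gene called with IL-4, at 0.62 (edgeR adjusted p = 0.0158).

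Genes for sensing lipopolysaccharide and alarmins form a list of 17, with 16 tested. With *E. coli* 7 were higher and none lower (13.5% and 16.7% of all genes, median 0.30), with IFN-γ 5 and 3 (15.6% and 16.0%), and with both stimuli 6 and 2 (23.9% and 25.2%). *Irak3*, a negative regulator of the pathway, rose by 2.48, *Cd14* by 0.77 and *Tlr4* by 0.75 (edgeR adjusted p = 2.91e-11, 0.00656 and 0.00140). *Il33*, an alarmin that induces IL-13 and IL-5 in innate lymphoid cells, had 56 counts summed over the *E. coli* libraries against 1 over unstimulated libraries a to c, a ratio of 50.1 after normalization (95% exact interval 8.63 to 2014). Its mean was 8.09 CPM with *E. coli*, 6.19 with IFN-γ, where no member was called, and 25.3 with both stimuli, where *Il13* was lower than with *E. coli* alone. With IL-4 *Il1rap* rose by 1.47 and *Tlr2* fell by 0.79 (edgeR adjusted p = 0.00173 and 0.0328), the 2 genes called of this list (5.97% higher and 4.35% lower over all genes), with a median of -0.17.

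Among the members themselves, log2 CPM of *Il5* and *Il13* had a Pearson correlation of 0.97 over the 12 libraries of set 1, *Il4* and *Il13* one of 0.77 and *Il4* and *Il5* one of 0.72. Over the 6 libraries of set 2 these were 0.59, 0.11 and 0.75. The 12 points of set 1 are 4 groups of 3, so the values mostly reflect group means. The 5 tested genes most like *Il13* were *Ehd1*, *Alas1*, *Emb*, *Cyp11a1* and *Trem1*, with correlations of 0.970 to 0.981. Most like *Il5* were *Il13*, *Cnih1*, *Emb*, *Alas1* and *F630028O10Rik*, at 0.952 to 0.969, and most like *Il4* were *Sem1*, *Zcrb1*, *Kif1c*, *Mcemp1* and *Trappc6b*, at 0.941 to 0.957. *Alas1* and *Emb* stood on the lists of both *Il13* and *Il5*, and the list of *Il4* shared no gene with these. By Spearman correlation only 1 of the 5 stayed among the top 5 for *Il13* and *Il5* and 2 for *Il4*. Over the 6 libraries of set 2 *Dvl1*, *Eif1ax*, *Pomk*, *Pithd1* and *Capn2* were most like *Il13*, at 0.994 to 0.999, *Fbxw8*, *Fam160b2*, *Brip1os*, *Smim7* and *Zfc3h1* most like *Il5*, at 0.977 to 0.992, and *Gm43412*, *Yy1*, *Wwp1*, *Ptp4a2* and *Ndufb10* most like *Il4*, at 0.969 to 0.990. These 6 points are 2 groups of 3, and none of the 15 genes was on a list of the other set.

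Exons of several genes named in this text overlap another gene on the other strand, which makes their counts uncertain in the way given for *Il5*. These are *Il4ra*, *Il3ra*, *Tyk2*, *Stat6*, *Bcl6*, *Satb1*, *Bhlhe41*, *Cebpa*, *Zc3h12c*, *Zfp36l1*, *Irak3*, *Il1rap*, *Gata3* and *Cd3e* of the lists, and *Alas1*, *Emb*, *Cnih1*, *Dvl1*, *Capn2*, *Fbxw8*, *Brip1os*, *Gm43412* and *Wwp1* of the genes most like a member. *Csf2rb*, *Csf2rb2*, *Satb1*, *Gata3*, *Klrb1c*, *Cyp11a1*, *F630028O10Rik* and *Kif1c* overlap a gene on their own strand, from which their reads cannot be told apart even with strand.

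Bases before the start of *Il13*, *Il5* and *Il4* are shown because these genes changed together with *E. coli* while only *Il13* fell with IL-4. They are 150 bases each from RefSeq (GRCm38.p6), on the strand of the gene, at chr11:53634703-53634852 (minus), chr11:53720644-53720793 (plus) and chr11:53618666-53618815 (minus), and an entry was found for 5 of the 5 members. The entry of *Il4* starts inside the annotated gene, so that the last 4 bases of its window are in the gene. Capitals mark the GATA letters WGATAR, where W is A or T and R is A or G, and the NFAT core GGAAA, each searched on both strands.
Il13: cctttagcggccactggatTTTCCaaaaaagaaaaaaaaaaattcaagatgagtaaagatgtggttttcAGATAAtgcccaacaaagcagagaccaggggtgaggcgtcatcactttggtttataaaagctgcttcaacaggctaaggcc
Il5: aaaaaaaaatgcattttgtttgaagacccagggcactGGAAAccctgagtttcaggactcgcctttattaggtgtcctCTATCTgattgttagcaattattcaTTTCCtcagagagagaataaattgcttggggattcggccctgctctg
Il4: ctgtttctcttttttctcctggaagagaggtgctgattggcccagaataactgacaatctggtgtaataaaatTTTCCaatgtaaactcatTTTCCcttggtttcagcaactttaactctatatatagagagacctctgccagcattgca
*Il13* has AGATAA 81 bases before the start and TTTCC, the core on the other strand, at 131. *Il5* has CTATCT, which is AGATAG on the other strand, at 72, and cores at 113 and 47. *Il4* has cores at 77 and 59 and none of the GATA letters in this window. Of the members not shown, *Il3*, at 0 counts in all libraries, has AGATAA at 101, and *Csf2* has a core at 55, counted from a RefSeq start that lies 232 bases from the annotated start. No GATA match overlapped a core. Of 32851 RefSeq mouse promoters of this length, 16% hold GATA letters and 37.6% hold the core, so that a match is frequent and does not by itself mark a site.

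Transcripts of other cells that could make these cytokines were read from lists of markers. T cell markers, of which 14 of 14 had a count in some library, summed to 18.6, 11.4 and 11.2 CPM in unstimulated libraries a to c, 9.38, 8.36 and 10.4 with *E. coli*, 11.8, 9.74 and 8.50 with IFN-γ and 13.2, 11.5 and 11.2 with both. In set 2 they summed to 5.83, 5.47 and 6.61 CPM unstimulated and 8.37, 4.49 and 3.11 with IL-4. The sums with *E. coli* were below those of unstimulated libraries a to c and overlapped those with IFN-γ, and only 1 of the 14 markers had enough counts to be tested. *Cd3d* was the most abundant, with 5 to 25 counts, and *Cd3e*, *Cd4* and *Cd8a* had 0 to 3, 0 to 2 and 0 to 1 counts per library. T cells express the transgene, and their part in *Il5* was not tested.

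Markers of type 2 innate lymphoid cells, 8 of 8 with counts, summed to 591 to 1159 CPM, nearly all from *Il1rl1*, the IL-33 receptor. The sums therefore follow this 1 gene and cannot be read as an amount of these cells. They summed to 598.8, 760.5 and 735.5 CPM in unstimulated libraries a to c, 923, 814 and 855 with *E. coli*, 624, 619.7 and 695 with IFN-γ and 695, 591 and 612 with both. All *E. coli* libraries were above the other 9. Of the 4 markers tested only *Il1rl1* was called higher with *E. coli* (13.5% of all genes), at 0.32 (edgeR adjusted p = 0.0435). The IL-7 receptor gene *Il7r* at -0.54, the lectin gene *Klrg1* at -0.20 and the IL-2 receptor gene *Il2ra* at 0.74 did not pass (adjusted p = 0.172, 0.643 and 0.367). With IFN-γ 1 was lower (16.0%), *Klrg1* at -1.69 (edgeR adjusted p = 0.00129), and with both stimuli 1 (25.2%). Compared with *E. coli* alone, 2 of 4 were lower with both stimuli (15.3%), where *Il13* was lower too. In set 2 the sums were 1078, 1159 and 987 CPM unstimulated and 848, 964 and 819 with IL-4, where *Il13* was lower too, and none of 5 tested was called (5.97% of all genes higher and 4.35% lower). These cells carry Thy1, against which the beads were directed, and *Thy1* had 0 to 3 counts per library. Their part in the result was not tested.

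Mast cell and basophil markers summed to 11.2, 8.87 and 7.85 CPM in unstimulated libraries a to c, 11.4, 8.36 and 35.55 with *E. coli*, 33.0, 15.9 and 15.04 with IFN-γ and 40.9, 83.8 and 73.2 with both. The sum was highest with both stimuli, as the mean of *Il4* was. Replicate 1 had the lowest sum and the least *Il4* of the libraries with both stimuli, whereas *E. coli* replicate 3 had the highest sum and the least *Il4* of its group. Of 2 markers tested, 2 were higher with both stimuli than unstimulated (23.9% of all genes; median 3.05) and than with *E. coli* alone (17.5%; median 2.06). In set 2 the sums were 10.6, 7.12 and 7.36 CPM unstimulated and 18.1, 8.47 and 24.1 with IL-4. Of the 13 markers 10 had counts, led by *Tpsb2* with 5 to 53, while *Mcpt1*, *Mcpt2* and *Mrgprb2* were at 0. The basophil protease *Mcpt8* had at most 1 count and the IgE receptor genes *Fcer1a* and *Ms4a2* at most 4 and 2. Their part in the result was not tested.

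B cell markers, 9 of 9 with counts and led by *Ighm*, summed to 229, 212 and 123 CPM in unstimulated libraries a to c, 43.65, 48.8 and 81.0 with *E. coli*, 104, 66.1 and 65.4 with IFN-γ and 131, 144 and 138 with both. With IL-4 they summed to 68.9, 62.8 and 74.7 CPM against 25.55, 25.35 and 46.25 unstimulated. With *E. coli* 5 of 5 tested were called lower (16.7% of all genes), with IFN-γ 4 of 5 (16.0%) and with both stimuli 0 of 5. Compared with *E. coli* alone, 5 of 5 were higher with both stimuli (17.5%), where *Il13* was lower. With IL-4 3 of 4 B cell markers were higher (5.97%). Their part in the result was not tested. NK cell markers reached at most 2.85 CPM (6 of 7 with counts, *Klrb1c* at 0) and mesothelial markers 2.08 (5 of 5).

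Of neutrophil markers, 9 of 9 had counts, and nearly all of the sum was *Retnlg*, a resistin-like gene. *Retnlg* fell with *E. coli*, by 1.02 (edgeR adjusted p = 2.14e-06), and with IL-4, by 1.30 (adjusted p = 1.13e-04), while *S100a8*, a calprotectin gene, rose by 3.06 with *E. coli*, from 8.58 to 72.1 CPM (adjusted p = 1.79e-05). Of the 3 markers tested in set 1, 1 was higher and 1 lower with *E. coli* (13.5% and 16.7% of all genes). With IFN-γ 2 were higher and 0 lower (15.6% and 16.0%). These were *Ly6g* at 2.27 and *S100a8* at 2.20 (edgeR adjusted p = 2.16e-05 and 0.00106). With both stimuli 2 were higher and 1 lower (23.9% and 25.2%). The markers summed to 558.5, 688.3 and 550.5 CPM in unstimulated libraries a to c, 353.3, 341.0 and 403.4 with *E. coli*, 680.1, 625.4 and 735.0 with IFN-γ and 330.8, 396.7 and 425.3 with both. In set 2 they summed to 1995, 1946 and 1677 CPM unstimulated and 779.6, 809.3 and 731.8 with IL-4, and *Retnlg* was the only 1 of 4 tested that was called (4.35% of all genes lower). Macrophage markers, 10 of 10 with counts and led by *Adgre1* or *C1qc*, summed to 2807, 3297 and 3466 CPM unstimulated and 2315, 2294 and 2595 with IL-4, and 4 of 10 were called lower (4.35% of all genes). In set 1 they summed to 1846, 1939 and 1971 CPM unstimulated, 1731, 1558 and 2126 with *E. coli*, 2458, 2395 and 2599 with IFN-γ and 2171, 2078 and 2593 with both. Dendritic cell markers, 7 of 7 with counts and led by *Ccr7*, summed to 21.2, 25.35 and 21.5 CPM in unstimulated libraries a to c, 8.16, 13.7 and 16.3 with *E. coli*, 39.2, 25.1 and 24.2 with IFN-γ and 30.7, 42.7 and 27.0 with both, and to 9.72, 10.1 and 16.0 unstimulated and 13.1, 20.6 and 23.3 with IL-4 in set 2. Their part in the result was not tested.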

How the data were processed

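Counts per Ensembl gene were deposited by the authors for each library, as whole numbers without normalization. The study's methods describe CEL-Seq2 libraries, mapping to GRCm38 with TopHat2 2.1.0 and counting of uniquely mapped reads with HTSeq 0.6.1, and also name fastp 0.20.1 and STAR 2.7.2a. They do not state which libraries these apply to, whether counting used the strand, or whether reads with the same molecular tag were collapsed. Counts outside genes or ambiguous between them were 21.1% to 39.4% of a library in set 1 (*E. coli*, IFN-γ and both), 0 in set 2 (IL-4), and were left out. Of the listed genes 98.3% and 99.7% matched the annotation used for names and positions (GENCODE M21). The members and gene lists were chosen with earlier results of these data known.

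The software was edgeR 4.0.16, limma 3.58.1 and DESeq2 1.42.0 under R 4.3.3, and scipy 1.17.1 under Python 3.11.15. Genes kept by filterByExpr (minimum count 10) were scaled with TMM factors. The quasi-likelihood F test of edgeR was applied, p-values were adjusted over every gene tested by the method of Benjamini and Hochberg, and a gene was called at an adjusted p under 0.05. The 12 libraries of set 1 shared 1 model (9883 genes), the 6 of set 2 another (10556 genes), and the IL-4 and *E. coli* responses were compared in a model of all 18 (10671 genes) that kept both unstimulated groups apart. Each standard error is the fold change divided by the root of F, an approximation. Replicates of 1 group differed by more than counting noise in every pair, the chi-square per gene running from 1.64 to 23.1. Unstimulated library e stood apart, at 23.1 against library d and 21.9 against library f. Libraries d and f gave 7.64, and pairs of IL-4 libraries 3.72 to 5.19.

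The genes named are the members, the genes from 100 kb before *Il4* to 100 kb after *Il3*, up to 4 called genes with the largest change from each list, and the 5 genes with the highest Pearson correlation of log2 CPM (prior count 2) with each tested member. *Gata1*, *Gata2*, *Gata3*, *Il7r*, *Klrg1*, *Il2ra*, *Ly6g*, *Ear6* and the marker genes with counts given were named after their values were seen. Alternatives were DESeq2's size factors, DESeq2, library totals without TMM, other filters on low counts, a fold threshold of 2, only the libraries compared, all unstimulated libraries as 1 group, a replicate block, leaving out each library in turn, library totals for levels, and a prior count of 0.5 or Spearman correlation for likeness. Counts corrected for molecules that share 1 of 4096 tags, and a fit of the 9 stimulated libraries alone, were chosen after seeing the data.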

Additional observations from a re-analysis of the deposited data

Results flagged for a closer look

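The responses of 3 members to IL-4 and to *E. coli*, each against its own unstimulated libraries, differed in a test of the difference itself, by -6.02 for *Il13*, -1.03 for *Il5* and -0.55 for *Il4* on the log2 scale. The difference of *Il4* did not pass on library totals, without a filter on low counts, or in 4 of 12 fits that left out a library. The stimuli belong to different sets, so that set and stimulus cannot be told apart in these differences beyond what the unstimulated libraries of each set account for.

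The response of *Il13* to IFN-γ and *E. coli* together departed from the sum of the separate log2 effects by -1.60, in the test of the interaction, which did not pass without IFN-γ replicate 3 (adjusted p = 0.0533).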

How the results depend on the processing

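Leaving out a library kept the direction and the side of the threshold in 163 of 180 fold changes of the members, with 8 no longer passing, 2 newly passing and 7 of the other sign. The other settings kept both in 186 of 204, with 10, 4 and 4. The cause of these changes was not tested, except where the setting itself is a stricter rule or uses fewer libraries. With a change of 2-fold or more also required, the genes called higher and lower were 350 and 673 with *E. coli*, 496 and 691 with IFN-γ, 915 and 1295 with both, 753 and 572 for both against *E. coli*, 218 and 186 for both against IFN-γ, 157 and 88 for the interaction and 326 and 152 with IL-4, and 699 were lower for IL-4 against the *E. coli* response. That rule also removed *Il4* at 0.53 and *Il5* at 0.72 with *E. coli*, 0.81 and 0.48 with both, 0.58 and 0.43 for both against IFN-γ, *Il13* at -0.99 for both against *E. coli* and *Il4* at -0.55 for IL-4 against *E. coli*.

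On library totals without TMM the median of all genes shifted to -0.21 with IFN-γ, -0.29 with both, -0.25 for both against *E. coli* and 0.14 for IL-4 against *E. coli*, and DESeq2 put the last at 0.10. Calls on library totals were 970 higher and 2448 lower with IFN-γ (1541 and 1579 with TMM), 1536 and 3676 with both (2358 and 2486), 1097 and 2859 for both against *E. coli* (1725 and 1515) and 443 and 815 for both against IFN-γ (618 and 591). There *Il5* was at -0.12 with IFN-γ and at -0.48 for both against *E. coli*, and *Il4* at -0.0039 for the interaction, 0.053 with IL-4 and -0.45 for IL-4 against *E. coli*. Mean levels on library totals were 89.3 CPM for *Il13* with both, and 898, 506 and 646 CPM for *Il5* with *E. coli*, IFN-γ and both. All 6 unstimulated libraries as 1 group gave 805 genes higher with *E. coli*, 1010 higher with IFN-γ and 970 lower with IL-4. Without a filter on low counts 316 genes were lower for the interaction and 719 with IL-4, and *Il4* was at -0.016 for the interaction and -0.57 for IL-4 against *E. coli*. Counts corrected for shared tags put *Il5* at -0.49 for both against *E. coli*.

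Leaving out each library in turn gave *Il5* -0.035 to 0.19 and *Il13* 0.14 to 1.04 with IFN-γ, *Il4* 0.20 to 0.40 for both against *E. coli*, and *Il5* 0.40 to 0.47 for both against IFN-γ, where 374 to 547 genes were higher and 336 to 575 lower. For the interaction it gave 138 to 355 higher and 112 to 276 lower, *Il4* -0.059 to 0.14 and *Il13* -2.03 to -1.13. With IL-4 311 to 812 genes were higher and 171 to 582 lower and *Il4* ran from -0.11 to 0.067. For IL-4 against the *E. coli* response *Il4* ran from -0.65 to -0.46.

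Same-numbered stimulated libraries deviated together with correlations of -0.045 to 0.33, and a library correlated best with its own number in 9 of 18 checks. The labels tie the number to no animal, batch or day, and these values do not settle whether one was shared. With the replicate number as a block, *Il5* for both against *E. coli* was at -0.25 (adjusted p = 0.0166), against -0.25 (adjusted p = 0.0410) in the unpaired fit of the same 9 libraries. Calls for both against *E. coli* were 1836 higher and 1611 lower with the block and 1692 and 1486 without, and for both against IFN-γ 740 and 690 with it and 583 and 570 without. Set against that unpaired fit, the block changed no call of a member. Depth limits *Csf2* and *Il3*, which are at or near 0, and the limit on tags affects *Il5*.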
